A study of Mus musculus with 46 samples.

Results

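The genes described here are the histone genes of a mouse pancreatic cancer cell line, measured side by side as ribosome footprints and as polyadenylated RNA. Members were chosen by gene symbol, by a rule that uses no counts but was set with earlier results of these data known, and 72 of the 10453 gene symbols in the deposited count tables met the rule. Of these, 62 carried the names of the replication-dependent clusters (5 H1, 16 H2A, 17 H2B, 12 H3 and 12 H4 genes). The other 10 were counted as variant genes: H1f0, H1f10, H2aj, H2aw, H2ax, H2az1, H2az2, H3f3a, H3f3b and H4f16. H2aw and H4f16 entered the variant class by their present symbols only, because their older symbols, Hist3h2a and Hist4h4, follow the cluster names.

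Ribosome profiling and mRNA sequencing had been carried out on the same lysates of EPP2 cells, which are murine pancreatic cancer cells with Cas9 under a doxycycline-inducible promoter and were grown from a single-cell-derived clone. All cultures were compared as control or Ctu1 iKO, an inducible knockout of Ctu1, which encodes a subunit of the enzyme that thiolates the wobble uridine of certain tRNAs, after 300 ng/ml doxycycline. Before harvest the cells received DMSO or 300 nM torin 1, an inhibitor of the mTOR kinase, for 2 h. Footprint and RNA libraries numbered 6 each for control with DMSO, control with torin 1 and Ctu1 iKO with torin 1, and 5 each for Ctu1 iKO with DMSO. The guide RNAs of the control cultures are not named in the labels, and the study describes controls that carried guides against non-coding regions or received no doxycycline. The experiment therefore rests on 1 clone of 1 cell line.

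Histones package DNA into nucleosomes, and dividing cells need large amounts of them while DNA is copied. The replication-dependent genes supply these histones in S phase, and their mRNAs are unusual in that they end in a conserved stem-loop, bound by SLBP, in place of a poly(A) tail. The variant genes are expressed outside S phase as well and as a rule make polyadenylated mRNA. RNA libraries prepared by poly(A) selection, as here, are therefore expected to hold little replication-dependent histone mRNA, whereas footprints are collected from ribosomes on any mRNA. The ratio of the 2 assays consequently does not measure translation per transcript for these genes.

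The stem-loops of 9 members, 7 replication-dependent genes and the variants H4f16 and H2ax, are shown because transcripts that end in one are not kept by poly(A) selection. The capitals mark the 16 bases of the stem-loop, a stem of 6 base pairs closed by a loop of 4 bases, and the lower-case letters are the 5 flanking bases on each side. All are written 5′ to 3′ on the gene's strand, from RefSeq on GRCm38.p6.
H3c14: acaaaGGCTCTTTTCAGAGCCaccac
H1f5: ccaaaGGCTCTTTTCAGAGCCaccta
H2bc18: caaaaGGCTCTTTTCAGAGCCacttt
H2ac20: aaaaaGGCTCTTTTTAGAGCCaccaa
H2bc1: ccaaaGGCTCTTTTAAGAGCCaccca
H4c14: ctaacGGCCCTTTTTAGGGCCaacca
H4c2: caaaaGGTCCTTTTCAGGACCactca
H4f16: acaaaGGCCCTTTTCAGGGCCcacaa
H2ax: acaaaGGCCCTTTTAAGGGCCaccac
They lie at chr3:96247327-96247342 (plus strand) for H3c14, chr13:21779837-21779852 (minus) for H1f5, chr3:96270171-96270186 (plus) for H2bc18, chr3:96220418-96220433 (minus) for H2ac20 and chr13:23933730-23933745 (minus) for H2bc1. Those of the remaining genes lie at chr3:96262939-96262954 (minus) for H4c14, chr13:23757366-23757381 (plus) for H4c2, chr6:136803998-136804013 (minus) for H4f16 and chr9:44335240-44335255 (plus) for H2ax.

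RefSeq gene models were found for 61 of the 62 replication-dependent members, 7 of them through an older symbol, and for all 10 variants, and Hist1h2ap was not matched. The large cluster on chromosome 13 held 51 replication-dependent genes between 21715711 and 23934156, and the cluster on chromosome 3 held 10 between 96219885 and 96270192. Within 100 bases after the stop codon, 56 of the 61 genes (91.8%) carried a stem-loop of this form, against 0.608% of all 10202 gene models searched on the transcript strand. Over the 59 members that carried it, 3 variants among them, it began 22 to 59 bases after the stop codon, with a median of 32. Of the 9 distinct stem-loops, the form shown for H3c14 was the commonest, in 35 genes of the H1, H2A, H2B and H3 families, while the forms with GGCC at the foot of the stem belonged to H4 genes and H2ax. The variants H2ax, H2aw and H4f16 carried it too. A search of this kind finds letters, and binding of SLBP was not measured.

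Sequencing depth was high in both assays. Footprint libraries held 4602092 to 52907878 counts, with the shallowest among Ctu1 iKO with torin 1, and RNA libraries held 129881946 to 325494304. Every RNA count was an even number. Epithelial markers were listed for 5 of 7 genes and mesenchymal markers for 3 of 3 in the tables of the DMSO libraries, but Krt7 and Cdh1 were not listed. No acinar or endothelial marker was listed, and of the leukocyte markers Cd68 was (1.27 to 6.10 CPM with DMSO, where CPM is counts per 1000000 counts of the library). Counts of the targeted gene did not separate the genotypes. Over all replicates Ctu1 was at 4.63 ± 0.35 CPM in control RNA (SD, n = 6) and 4.04 ± 0.82 in Ctu1 iKO RNA (SD, n = 5). In footprints it was at 2.52 ± 0.65 against 1.78 ± 0.41, and both assays had overlapping ranges and listed it for DMSO only. The paper shows editing of the locus by PCR of genomic DNA in Ctu1 iKO EPP2 cells, and reports more ribosomes at AAA codons in them.

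Some RNA libraries lay against their treatment labels, and the RNA comparisons below therefore use replicates 1 to 3. Along the mean difference between torin 1 and DMSO in the control RNA of replicates 1 to 3, over 9785 genes outside the histone set, 0 marks DMSO and 1 marks torin 1 for replicates 1 to 3 of the same genotype. The RNA libraries labelled Ctu1 iKO with DMSO, replicates 4 and 5, stood at 0.91 and 0.84, near torin 1. The RNA libraries labelled torin 1, replicates 5 and 6, stood at 0.17 and 0.18 in control and at 0.19 and 0.26 in Ctu1 iKO, near DMSO. The footprint libraries stood at −0.04 to 0.14 with DMSO and 0.68 to 1.16 with torin 1, so that all replicates were used for footprints alone.

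The largest contrast in the histone set was between the assays. In control cells with DMSO the replication-dependent genes took 4.64% ± 0.999 (SD, n = 6) of all footprint counts, from 3.26% to 5.64% with a median of 5.10%. In the RNA of the same group they took 0.00118% ± 0.000132 (SD, n = 3, replicates 1 to 3). H3 genes contributed 1.78% of all footprint counts, H4 genes 1.18%, H2B genes 0.983%, H2A genes 0.443% and H1 genes 0.258%. Footprint density, in CPM per kb of coding sequence, had a median of 1658 over the 61 matched genes (range 219 to 6755), against 15.1 over all 10136 genes with a length, which put the members between percentiles 92.9 and 99.9. RNA density, in CPM per kb of transcript, had a median of 0.0454 over the same genes (0 to 8.04), against 10.7 over all genes, at a median percentile of 2.48.

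**Figure D1:**
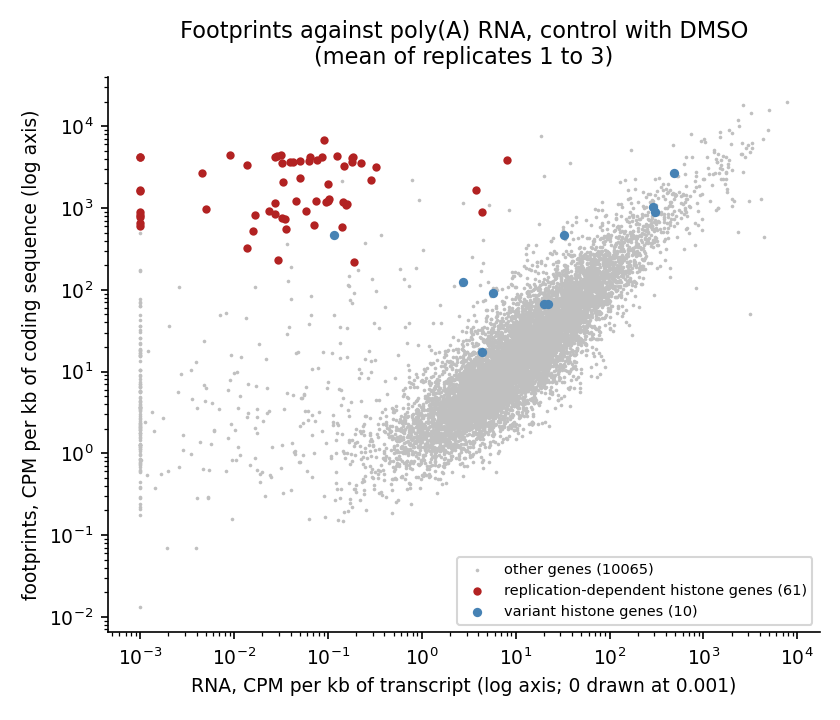
Footprint density (CPM per kb of coding sequence, vertical, log axis) against RNA density (CPM per kb of transcript, horizontal, log axis) in control cells with DMSO, as means of replicates 1 to 3, with genes at 0 in RNA drawn at 0.001. The 61 matched replication-dependent genes sit at the upper left, above 219 CPM per kb in footprints and below 8.04 in RNA, while most of the 10 variants lie in the cloud of other genes.

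H3c14, an H3 gene of the chromosome 3 cluster, had the highest footprint density of the set as counted. Its footprints in control with DMSO were 2459, 2941 and 2929 CPM in replicates 1 to 3, whereas its RNA was 0.101, 0 and 0.0817 CPM. Over all 6 libraries its footprints ran from 1352 to 3344 CPM with a median of 2694. The rank of H3c14 is uncertain, because H3c15 has the same coding sequence and held a lower count. In means of replicates 1 to 3 H3c14 stood at 2776 CPM and H3c15 at 1388, with H3c10 (1809), H3c2 (1806) and H3c4 (1775) between them. H3c10, H3c2 and H3c4, H3 genes too, followed in footprint density. H3c10 ran from 1035 to 1971 CPM (median 1739), H3c2 from 1085 to 1890.5 (median 1769) and H3c4 from 993 to 1939 (median 1721), so these 3 did not differ beyond the spread between libraries. The RNA of H3c10 was 0 in 2 of replicates 1 to 3 and 0.0133 CPM in the other, and that of H3c4 was 0.0477 to 0.0799 CPM. In none of these genes did any footprint library come near the level of an RNA library.

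The fold of footprints over RNA, taken as the ratio of mean CPM in replicates 1 to 3, was computed for each member in control with DMSO. No RNA count was present for 10 replication-dependent genes, for which 3 counts per library were taken as the floor, giving folds of at least 14519 to at least 104442. For H2bc7, H3c10 and H3c13 only 1 to 3 RNA counts were present in all, with ratios of 162653 (95% exact Poisson interval 45027 to 1343076), 407704 (112864 to 3366545) and 482917 (133685 to 3987599). These intervals cover counting error only, and since RNA counts came in even numbers their true width is larger. In the other 49 genes the fold ran from 165 in H2bc21 to 154609 in H3c15. With the 10 genes at their bound, the median over the 62 was 19553, against 0.756 over all 10220 genes, of which the middle 90% lay between 0.243 and 2.43. The family medians were 6808 for H1, 19437 for H2A, 15102 for H2B, 60141 for H3 and 25844 for H4.

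In a model fitted over all genes (edgeR, quasi-likelihood, adjusted p by Benjamini-Hochberg), a gene was called high when its adjusted p was under 0.05 and its ratio at least 4-fold above that of the median gene. The p tests equal CPM in both assays, not the distance from the median gene. All 62 replication-dependent members and 4 of the 10 variants were called, against 5.75% of the 10390 genes tested. This count is a description, since most members passed the filter on low counts, and entered the tables, through footprints alone. With a mean of 10 counts required in each assay, 20 replication-dependent genes could be tested and all 20 were called, with 4 of 10 variants, against 3.25% of 10114 genes. The log2 ratio relative to the median gene had a median of 14.96 over the 62 (7.76 to 20.93), but for genes without RNA counts the fitted value depends on the prior count. By culture, with 1 CPM added to both assays, the median log2 ratio of the replication-dependent genes in control with DMSO was 9.37, 9.46 and 9.22 in replicates 1 to 3, or 9.35 ± 0.12 (SD, n = 3). The median over all genes was −0.40, −0.39 and −0.34 in the same cultures, and the highest 5% began at 1.32, 1.48 and 1.61. The lowest replication-dependent gene stood at 5.75, 5.94 and 5.75, far above that mark. Among the 62 genes with the highest ratio in a culture, 47 to 49 were replication-dependent histone genes.

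**Figure D2:**
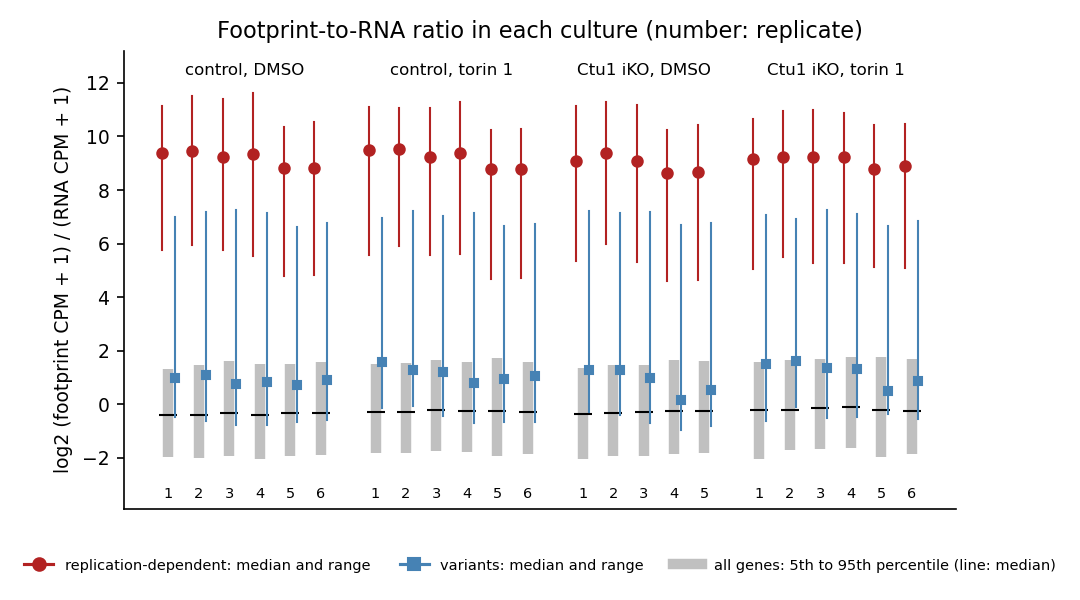
Log2 ratio of footprints to RNA, each as CPM plus 1, in every culture (horizontal), with the median and range of the replication-dependent genes and of the variants, and the median with the 5th to 95th percentile of all genes. In each culture the replication-dependent genes lie apart from the bulk of all genes, and the median variant lies at percentiles 67.1 to 95.3 of all genes.

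Near-identical copies limit what the count of any 1 histone gene means. H3c14 and H3c15 have the same coding sequence, and H3c14 held 2.00 times the footprint count of H3c15 in all 23 libraries, with ratios between 1.99965 and 2.00065. Hist1h2bq and Hist1h2br differed by at most 1.47% between libraries, H2ac18 and H2ac19 by at most 2.65%, and Hist1h4m and Hist1h4n by at most 10.8%. One footprint may thus have been counted on more than 1 copy, and the methods do not say how reads with several matches were treated in these tables. Values of members with copies are uncertain for that reason, and the share of all counts held by the class could be too high. The RNA counts of H3c14 and H3c15 differed, at 460 and 94 over the 23 libraries.

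The contrast between assays was also present in genes with few repeated bases. Coding sequences were cut into overlapping windows of 28 bases, close to the length of a footprint, and each window was looked up in the rest of the genome. Under 25% of the windows were found elsewhere for 5 replication-dependent genes, the linker histone genes H1f1 and H1f5, H2bc18, H2bc21 and H4c14, with 0.813% in H1f1. H1f5 had 558, 626 and 644 CPM in footprints and 0.0504, 0.0533 and 0.0341 CPM in RNA. H4c14 had 378, 394 and 372 CPM in footprints and 0.0252, 0.0399 and 0.0204 CPM in RNA. H1f1 had 152, 156 and 140.4 CPM in footprints and 0.0252, 0.0133 and 0.0272 CPM in RNA. The assays did not overlap in any of these genes, and the folds of the 5 ran from 165 to 20785 with a median of 13281. Their RNA windows of 100 bases were all unique. The median fold was 11707 in the 12 genes with 25% to 75% of windows repeated and 30742 in the 44 genes with 75% or more. H2bc21 had the lowest fold of the class and is described next.

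**Figure D3:**
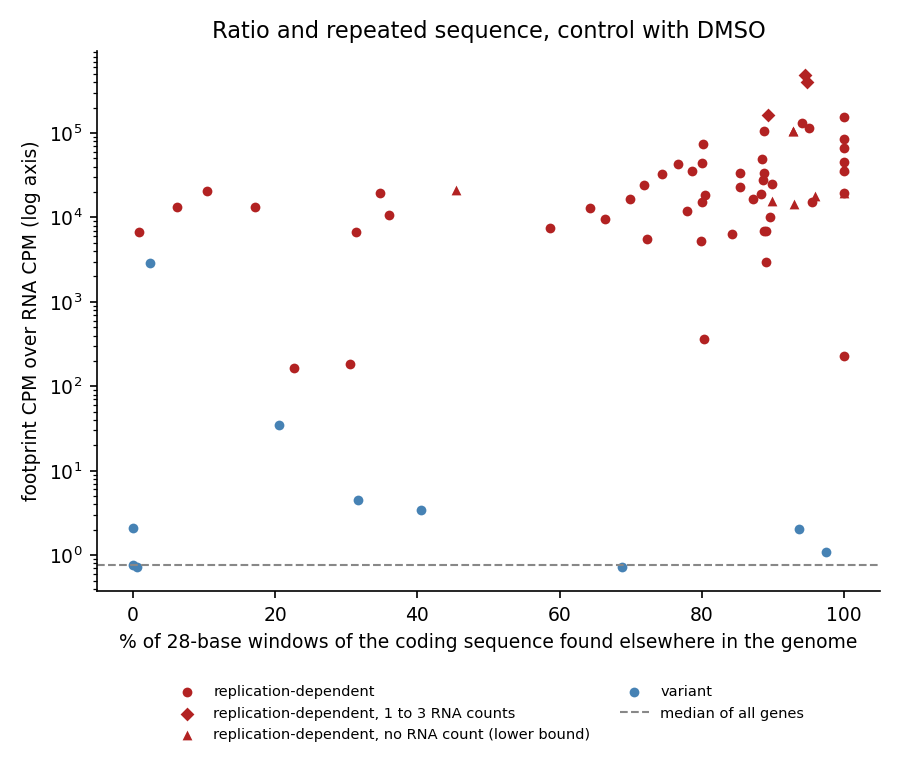
Fold of footprints over RNA in control cells with DMSO (vertical, log axis) against the percentage of 28-base windows of the coding sequence that also occur elsewhere in the genome (horizontal), where triangles are lower bounds for genes with no RNA count and diamonds are ratios on 1 to 3 RNA counts. Replication-dependent genes with under 25% of windows repeated reach folds of 165 to 20785, far above the dashed line at the median of all genes, 0.756.

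RNA from the replication-dependent class was concentrated in a few genes, which were picked here after their values were seen. H4c9, H1f2, H2bc4 and H2bc21 held 82.9% of the RNA counts of the class in control with DMSO. H4c9 had 3.37, 2.89 and 3.46 CPM in RNA against 1269.6, 1292 and 1011 CPM in footprints. H1f2 had 2.61, 2.76 and 4.08 CPM in RNA, and H2bc4 had 2.67, 2.48 and 3.21. H2bc21 had 0.642, 0.426 and 0.450 CPM in RNA against 87.2, 86.6 and 77.0 CPM in footprints, which gave the lowest fold of the class in all 4 groups (165, 138, 118 and 84.8 for control with DMSO, control with torin 1, Ctu1 iKO with DMSO and Ctu1 iKO with torin 1). At the other end, H2ac12, H2bc1, Hist1h2ao, Hist1h2ap, Hist1h2bq and Hist1h2br had no RNA count in any of the 23 libraries.

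A poly(A) signal, AATAAA or ATTAAA in the last 50 bases of an annotated transcript, was found in 7 of the 61 replication-dependent models (11.5%) and in 80.1% of all gene models. The 7 were H2bc21, H2bc4, H2bc6, H3c6, Hist1h2bp, Hist1h2bq and Hist1h2br. Their median RNA level was 0.0462 CPM against 0.0221 CPM in the 54 without a signal, and 3 of the 7 exceeded 0.1 CPM against 5 of the 54. H2bc21 has an annotated transcript of 2667 bases, long for a histone gene, in which no stem-loop was found. H2bc4, H2bc6 and H3c6 have models with a poly(A) signal as well as a stem-loop, and H2bc4, H2bc6, Hist1h2bp, Hist1h2bq and Hist1h2br have 2 exons, while most replication-dependent genes have no intron. H4c9 and H1f2, which were high in RNA, had no signal in the annotated transcript. Which 3′ ends these cells used was not measured.

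Among the variants, the fold of footprints over RNA differed widely, and the median variant stood at percentiles 93.3, 93.4 and 89.7 of all genes in replicates 1 to 3 of control with DMSO. Near the median gene lay 4 of the 10, H3f3a, H3f3b, H2az2 and H1f0. H3f3a and H3f3b both encode the replacement histone H3 that is deposited outside S phase. H3f3b had 418, 440.5 and 428 CPM in footprints and 587, 543 and 625 CPM in RNA, a fold of 0.734 (its log2 ratio to the median gene, −0.06, was 1.24 per length), and H3f3a had 412, 322 and 357 CPM in footprints and 325, 302 and 372 CPM in RNA, a fold of 1.09. H2az1, one of the genes for the variant H2A.Z, had 975, 1082 and 1083 CPM in footprints and 511, 478 and 568 CPM in RNA, a fold of 2.02. The folds of H2az2, H1f0 and H1f10 were 0.734, 0.775 and 2.10. The median of the 10 variants was 2.06. In H3f3a and H2az1 75% or more of the coding windows were found elsewhere in the genome, so the limit set by copies applies to both.

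Of the 4 variants called high, 3 carry the stem-loop. H4f16 had 130.4, 152 and 158 CPM in footprints and 0.0378, 0.0666 and 0.0477 CPM in RNA (fold 2895, log2 ratio to the median gene 11.87, SE 0.21, adjusted p = 8.41e-09 by edgeR), with 2.46% of its coding windows found elsewhere. H2aw had 52.6, 47.7 and 45.1 CPM in footprints and 1.80, 1.05 and 1.31 CPM in RNA (fold 35.0, log2 ratio 5.52, SE 0.22). Both lack a poly(A) signal in the annotated transcript, the only variants to do so. The fold of H4f16 lay within the range of the replication-dependent class, and that of H2aw lay between that range and the other variants. H2ax, whose product is phosphorylated at DNA breaks and which carries a stem-loop as well as a poly(A) signal, had 187, 218 and 197 CPM in footprints and 46.7, 45.8 and 41.7 CPM in RNA (fold 4.49, log2 ratio 2.56, SE 0.10). H2aj had a fold of 3.44 and a log2 ratio of 2.17, SE 0.19, with a poly(A) signal and no stem-loop, but without replicate 2 the log2 ratio was 1.88, under the 4-fold mark. The 3 genes outside the histone set with the same 16 bases after the stop codon, Bap1, Capn6 and Nemp1, had folds of 0.260, 0.635 and 0.682.

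Other genes reached ratios as high as those of the histone class. The 10 highest outside the set, named after their values were seen, had log2 ratios to the median gene from 16.47 to 18.09 and were Gm15013, Aldoart1, Gm17087, Zfp536, Gm12728, 1700016K19Rik, Srp54b, Aldoart2, Eif4a3l1 and Pou4f2. In all, 158 genes of the 10220 had no RNA count in control with DMSO, of which 10 were histone genes. A high ratio alone was thus not particular to histone genes.

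The contrast between assays was of similar size in the 4 groups. The median log2 ratio by culture, with 1 CPM added, was 9.35 ± 0.12 in control with DMSO, 9.42 ± 0.17 in control with torin 1, 9.19 ± 0.18 in Ctu1 iKO with DMSO and 9.22 ± 0.04 in Ctu1 iKO with torin 1 (SD, n = 3 each). As ratios of mean CPM, the medians were 19553, 24276, 16384 and 20243 in the same order, and those of the variants were 2.06, 2.79, 2.45 and 3.16. The share of footprint counts on replication-dependent genes was 4.84% ± 1.12 in control with torin 1 (SD, n = 6, 3.41% to 5.90%), 4.07% ± 0.759 in Ctu1 iKO with DMSO (SD, n = 5, 3.14% to 4.86%) and 4.53% ± 0.614 in Ctu1 iKO with torin 1 (SD, n = 6, 3.68% to 5.13%). Over all replicates these ranges overlap with that of control with DMSO. Within replicates 1 to 3 the genotypes did not overlap, at 5.08% to 5.64% in control against 4.37% to 4.86% in Ctu1 iKO with DMSO, and at 5.25% to 5.90% against 4.43% to 5.09% with torin 1. Replicates 5 and 6 were low in the groups of 6, as were replicates 4 and 5 of Ctu1 iKO with DMSO, so that over all replicates the spread within a group exceeded the differences between groups. In RNA the share was 0.00145% ± 0.000228 in control with torin 1, 0.00149% ± 0.000179 in Ctu1 iKO with DMSO and 0.00173% ± 0.000257 in Ctu1 iKO with torin 1 (SD, n = 3 each, replicates 1 to 3). In bulk samples a smaller share of cells in S phase and less histone mRNA per cell cannot be told apart.

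**Figure D4:**
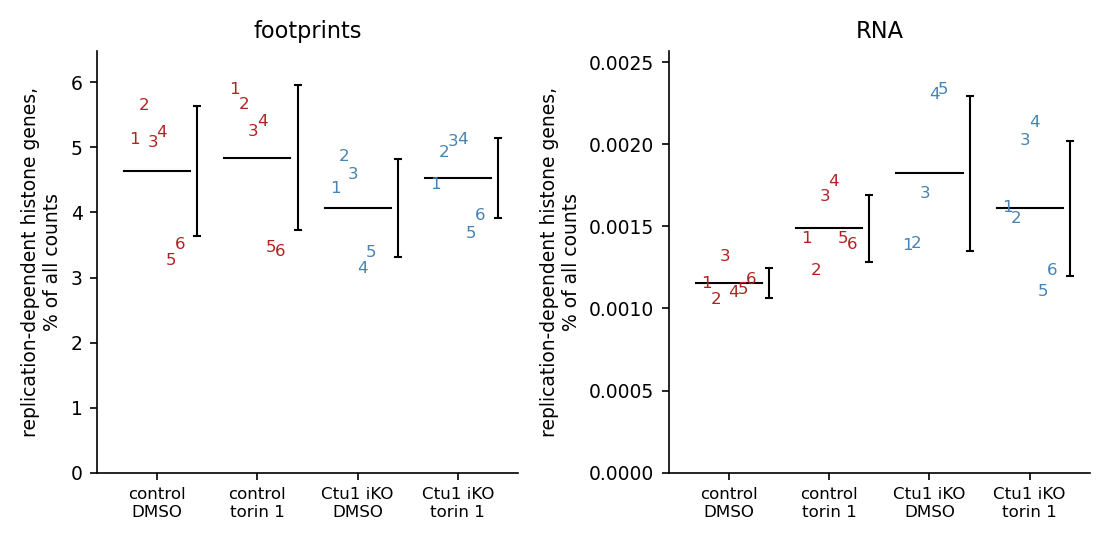
Percentage of all counts on replication-dependent histone genes in each library, for footprints and for RNA in separate panels, by group, where digits are replicate numbers, lines are group means and bars are SD. Footprint shares run from 3.14% to 5.90% with low values in the highest replicate numbers of each group, and RNA shares reach 0.00234% at most.

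The first question of the design was how torin 1 changed the histone genes. In control footprints 1 member of 72 was called at an adjusted p under 0.05, against 7.24% of all 9856 genes tested. It was H3f3a, which had 322 to 412 CPM with DMSO (median 348) and 427 to 524 CPM with torin 1 (median 474). The groups did not overlap, all 6 cultures were higher with torin 1, and the log2 change was 0.33 with SE 0.08 (adjusted p = 0.0224 by edgeR). With replicates 1 to 3 alone the change was 0.36 (adjusted p = 0.321), and with replicates 4 to 6 alone 0.30 (adjusted p = 0.170), so neither subset passed the threshold. Since 75% or more of the coding windows of H3f3a were found elsewhere, its count may hold footprints of copies. The replication-dependent genes had a median log2 change of −0.00 (−0.37 to 0.17), with 31 of 62 below 0, where the median of all genes was 0.01. When library totals were used in place of TMM factors, the median of all genes moved by 0.10 and that of the class stood at 0.09.

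Cultures with the same replicate number deviated together in this comparison, and with the replicate number as a block 10 members were called, against 20.5% of all genes. H3c13, H3c14 and H3c15, from the chromosome 3 cluster, were lower with torin 1 in 6 of 6 pairs. H3c13 had 584 to 1329 CPM with DMSO (median 1054) and 495 to 1097 with torin 1 (median 883), a log2 change of −0.37 (SE 0.04, adjusted p = 6.98e-05 by edgeR). H3c14 had 1352 to 3344 CPM with DMSO and 1174 to 2699.5 with torin 1 (log2 change −0.34, adjusted p = 2.13e-04). H3c15, which shares its coding sequence with H3c14, changed by −0.34 and is no separate evidence. In the opposite direction, H2az2, the second H2A.Z gene, had 13.98 to 36.9 CPM with DMSO and 21.98 to 54.2 with torin 1 (log2 change 0.47, 6 of 6 pairs higher, adjusted p = 0.00438). H3f3a passed again at 0.33 (adjusted p = 7.42e-04). The other 5 changed by −0.20 (H2bc13) to 0.17 (H2ac6). The ranges overlapped in each of the 10 members except H3f3a.

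In Ctu1 iKO footprints no member was called with torin 1, against 8% of all genes, and none passed an unadjusted p under 0.05 (21.6% of all genes) or DESeq2 (11.7%). The median log2 change of the replication-dependent genes was 0.09, with 46 of 62 above 0. Leaving out 1 library moved it between 0.0049, without Ctu1 iKO replicate 4 with DMSO, and 0.17, without replicate 2 of that group. H3f3a had 392 to 450.2 CPM with DMSO and 377 to 542 with torin 1, which overlapped.

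The second question was how loss of Ctu1 changed the histone genes. With DMSO, 61 of the 62 replication-dependent genes had fewer footprints in Ctu1 iKO than in control, with a median log2 change of −0.20 (−0.40 to 0.03) where the median of all genes was −0.00. No member was called by edgeR, against 2.66% of all genes, while 6 of the 72 passed an unadjusted p under 0.05 (17.9% of all genes), 5 of them H2B genes, and DESeq2 called 1 (6.74% of all genes). The gene nearest the threshold was H2bc7, with 305 to 393 CPM in control (median 340) and 243, 256, 282, 284 and 326 CPM in Ctu1 iKO, a log2 change of −0.34 with SE 0.10 (adjusted p = 0.0923 by edgeR, 0.0303 by DESeq2). The ranges of H2bc7 overlapped through 1 Ctu1 iKO culture. With the replicate number as a block 8 members were called, all of them H2B genes and lower (−0.48 to −0.38), against 3.5% of all genes. The numbers did not pair the cultures in this comparison (r from −0.09 to 0.50), so the calls with the block are uncertain. Family medians were −0.32 for H2B, −0.27 for H3, −0.16 for H1 and H2A and −0.14 for H4. Since the genes of a class share sequence and cultures, these counts are no independent evidence of a direction. The class median was −0.21 in replicates 1 to 3, −0.31 in replicates 4 to 6 (where control holds the high replicate 4 and Ctu1 iKO low libraries only), −0.16 with library totals, and −0.30 to −0.11 with 1 library left out. The variants had a median of 0.10, with 3 of 10 below 0.

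With torin 1, 60 of the 62 replication-dependent genes had fewer footprints in Ctu1 iKO than in control, with a median log2 change of −0.12. No member was called by edgeR, against 4.83% of all genes, while 3 of the 72 passed an unadjusted p under 0.05 (18.8% of all genes) and DESeq2 called 1, H2az1 (8.5% of all genes). The direction of the class rested on replicates 1 to 3, where the median was −0.28, because it was 0.02 in replicates 4 to 6 with 38 genes above 0. Same-numbered cultures deviated together here as well, and with the replicate block 9 members were called, against 14.4% of all genes. H2az1 had 929 to 1256 CPM in control (median 1088) and 739.8 to 1039 in Ctu1 iKO (median 888), lower in 6 of 6 pairs with a log2 change of −0.33 (adjusted p = 0.00939 by edgeR). H3f3b, called too, had 412 to 531 CPM in control and 481 to 613 in Ctu1 iKO, higher in 6 of 6 pairs with a log2 change of 0.19 (adjusted p = 0.0240 by edgeR). Among the replication-dependent genes H2bc14 (−0.32), H3c13 (−0.28), H1f4 (−0.24), H2bc1 (−0.23), H3c14 and H3c15 (−0.21 each) were lower and H1f1 (0.23) was higher.

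**Figure D5:**
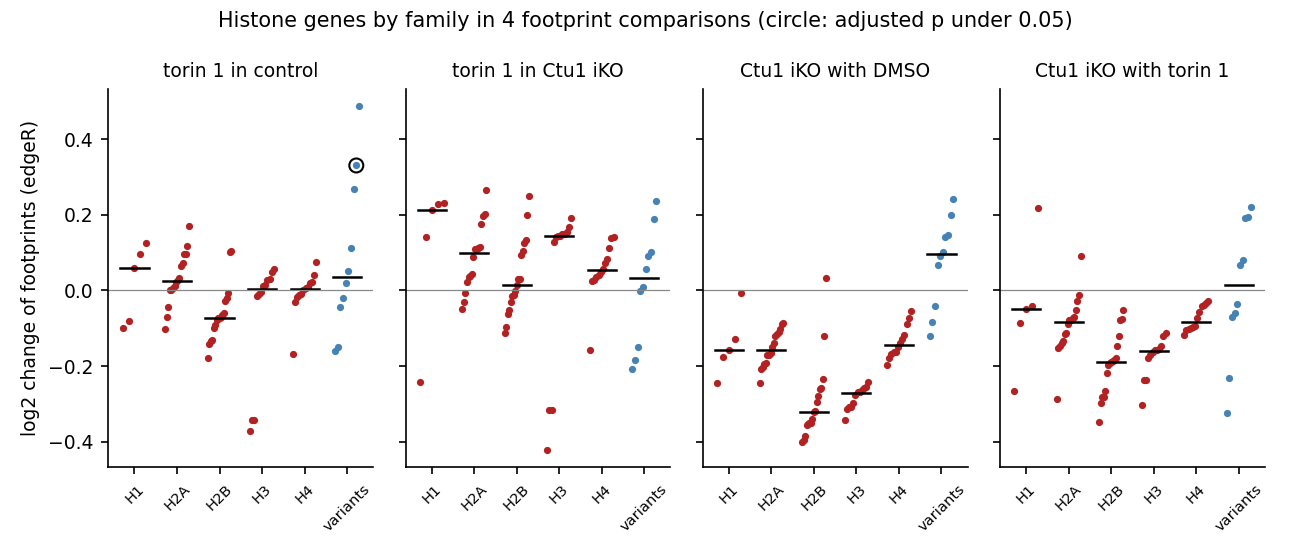
Log2 change of footprints for each histone gene in the 4 comparisons, grouped by family, where circles mark members with an adjusted p under 0.05 and black lines are medians. H3f3a is the single marked member, at 0.33 for torin 1 in control, and in Ctu1 iKO with DMSO 61 of the 62 replication-dependent genes lie below 0, none of them marked.

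Whether torin 1 acted differently in the 2 genotypes was tested as an interaction. No member was called by edgeR, against 0.639% of all genes, with 1 at an unadjusted p under 0.05 (4.67% of all genes) and none by DESeq2 (1%). The class median of the interaction was 0.07 over all cultures, −0.05 in replicates 1 to 3 and 0.36 in replicates 4 to 6, where Ctu1 iKO with DMSO holds low libraries only. For H3f3a, which was called in control alone, the interaction was −0.27 with SE 0.12 (adjusted p = 0.994 by edgeR), so a difference between the genotypes was not shown.

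In polyadenylated RNA most of the class was too low to test. Only 15 to 21 of the 62 replication-dependent genes reached a mean of 10 counts, depending on the comparison, with 9 variants each time. No member was called by edgeR in any of the 4 comparisons, against 13.1% of all genes for torin 1 in control, 8.25% for torin 1 in Ctu1 iKO, 5.12% for Ctu1 iKO with DMSO and 1.31% for Ctu1 iKO with torin 1. At an unadjusted p under 0.05 there were 1, 2, 3 and 3 members in that order, against 27.6%, 24.7%, 24.4% and 20% of all genes. DESeq2 called 0, 0, 3 and 1, against 20.4%, 16.7%, 15.1% and 11.3%. Same-numbered libraries deviated together in all 4, and with the replicate block 5, 6, 3 and 5 members were called, against 43.7%, 35.1%, 28% and 32.8% of all genes.

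Among the members called with the block, replication-dependent genes were higher with torin 1 or in Ctu1 iKO, and H2az1 and H2ax were lower in Ctu1 iKO. H2bc4 had 2.67, 2.48 and 3.21 CPM in control with DMSO and 3.47, 3.25 and 4.72 CPM with torin 1, higher in 3 of 3 pairs (log2 change 0.47, adjusted p = 0.00357 by edgeR). H1f2 (0.37) and H4c9 (0.31) rose as well, as did H2az2 (0.17), whereas H2az1 fell (−0.17). Without the block, leaving out 1 library moved H2bc4 from 0.28 (without torin 1 replicate 3) to 0.62 (without DMSO replicate 3), H1f2 from 0.11 (without torin 1 replicate 3) to 0.63 (without DMSO replicate 3), H2az2 from 0.070 (without DMSO replicate 3) to 0.24 and H2az1 from −0.25 to −0.079 (without DMSO replicate 3), with no change of direction. In Ctu1 iKO with torin 1, H2bc4 (0.54), H2aw (0.46) and H1f2 (0.33) rose and H2aj (−0.29), H2ax (−0.21) and H2az1 (−0.20) fell, although with all replicates the changes of H2bc4 (−0.068) and H1f2 (−0.092) turned. Leaving out 1 library, again without the block, gave 0.35 to 0.79 for H2bc4, 0.17 to 0.47 for H1f2, −0.46 to −0.18 for H2aj and −0.31 to −0.12 for H2az1. For H2bc4, H1f2 and H2aj the first value is without torin 1 replicate 3 and the second without DMSO replicate 3. H2az1 was at −0.31 without torin 1 replicate 3 and at −0.12 without torin 1 replicate 1 or DMSO replicate 3. Between the genotypes with DMSO, H4c9 was higher, with 3.37, 2.89 and 3.46 CPM in control and 4.37, 4.38 and 4.97 CPM in Ctu1 iKO (log2 change 0.52, adjusted p = 0.0129 by edgeR). H2az1 was lower, with 511, 478 and 568 CPM in control and 412, 395 and 457 CPM in Ctu1 iKO (−0.28, adjusted p = 0.00456), and so was H2ax, with 46.7, 45.8 and 41.7 against 38.1, 38.7 and 37.2 CPM (−0.22, adjusted p = 0.0222), which turned to 0.031 with all replicates. With torin 1, H2ax (−0.41) and H2az1 (−0.32) were lower in Ctu1 iKO, and H2aw (0.52), H2bc4 (0.41) and H3f3a (0.17) were higher. Without the block, H3f3a was at 0.048 and H2bc4 at 0.23 when Ctu1 iKO replicate 3 was left out, H3f3a at 0.28 and H2bc4 at 0.62 without control replicate 3, and H2aw at 0.32 without control replicate 2. Every pair moved in the stated direction except for H3f3a, with 2 of 3. The RNA and footprints of H2az1 were thus both lower in Ctu1 iKO with torin 1. The summed RNA level of the mesenchymal markers Vim, Cdh2 and Zeb1 was 2354 to 2715 CPM in control and 3080 to 6040 CPM in Ctu1 iKO with DMSO, with no overlap. With torin 1 it was 2947 to 3485 CPM in control and 2708 to 6173 CPM in Ctu1 iKO, which overlap, and in control it did not overlap between treatments. These RNA ranges run over all replicates, including the libraries that lay against their treatment labels, so genotype and treatment are mixed in them. In footprints it was 3445 to 4314 CPM in control and 3500 to 4883 CPM in Ctu1 iKO with DMSO, above the 2481 to 3194 and 2031 to 2785 CPM with torin 1. The listed epithelial markers summed to 247 to 353 CPM in control RNA and 320 to 659 CPM in Ctu1 iKO RNA with DMSO. With torin 1, where 4 of the 7 were listed, their RNA summed to 374 to 450 and 365 to 600 CPM. In footprints they summed to 304 to 381 against 355 to 483 CPM with DMSO and 323 to 416 against 411 to 511 CPM with torin 1. The part of these marker shifts in the histone changes was not tested.

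With all replicates, 10 members were called in the RNA of Ctu1 iKO with DMSO, against 26.4% of all genes, and 7 of these were replication-dependent genes that were higher, such as H4c9 (0.91) and H3c6 (1.33). This count includes the libraries labelled Ctu1 iKO with DMSO, replicates 4 and 5, that lay near torin 1.

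Changes in translational efficiency, the change in footprints beyond that in RNA, could be estimated only on the few RNA counts of the class. For torin 1 in control 2 members were called, against 1.14% of all genes, and both were H4 genes. H4c6 had RNA counts of 8, 12 and 22 with DMSO and 2, 4 and 2 with torin 1, and footprint counts of 30760, 22459 and 25804 against 16933, 12852 and 13414 (log2 change 2.04, SE 0.40, adjusted p = 0.0262 by edgeR). Hist1h4m had RNA counts of 4, 2 and 4 with DMSO and none with torin 1 (3.85, SE 0.60, adjusted p = 0.0450 by edgeR). Neither was called when RNA counts were halved to whole read pairs or with all replicates, and neither averaged 10 counts over the 6 RNA libraries, so these calls rest on few read pairs. No member was called in the other comparisons by edgeR, where 1.67%, 0% and 0.111% of all genes were, for torin 1 in Ctu1 iKO, Ctu1 iKO with DMSO and Ctu1 iKO with torin 1. Of the 72 members, 5, 16 and 11 passed an unadjusted p under 0.05, against 9.05%, 3.84% and 4.73% of all genes. DESeq2 called 0, 0 and 2, against 3.27%, 0.193% and 1%. For most of these members the RNA side of the ratio rests on a few counts.

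Genes that process histone mRNA or carry histones, and genes of S phase, were read beside the members as 2 lists of 30, of which 29 and 30 were tested. Slbp, the stem-loop binding protein, had a log2 ratio of footprints to RNA of 0.997 relative to the median gene, and the list medians were −0.20 and 0.25. With torin 1 the footprints of 1 processing or chaperone gene rose in control, Ubn1 (0.54), a subunit of the HIRA chaperone complex, and Ubn1 rose in Ctu1 iKO too (0.54) while Mta1 fell (−0.70). In the S phase list 3 of 30 genes fell and none rose in either genotype, near the 7.24% and 8% of all genes called in these comparisons: the cyclin E genes Ccne1 (−0.86 in control, −1.13 in Ctu1 iKO) and Ccne2 (−0.72 and −0.80), and Rrm2, a subunit of ribonucleotide reductase (−0.46 and −0.53). In Ctu1 iKO compared with control the chaperone gene Nasp, which binds H3 and H4, fell in footprints with DMSO (−0.62, SE 0.07) and with torin 1 (−0.80). Chaf1a, a subunit of the CAF-1 complex that loads new histones on copied DNA, fell with DMSO (−0.46), and Mta1 (−0.74) and Rrm2 (−0.45) fell with torin 1. Of all genes, 2.66% with DMSO and 4.83% with torin 1 were called in these comparisons of genotypes. No gene of either list rose between the genotypes, and none was called in the interaction. In RNA, 5 genes fell with torin 1 in control, Ccne1 (−0.95), Gins3 (−0.49), Upf1 (−0.47), Fen1 (−0.43) and Cabin1 (−0.41), and 2 in Ctu1 iKO, Ccne1 (−1.04) and Hira (−0.33), where 13.1% and 8.25% of all genes were called. Nasp RNA fell in Ctu1 iKO with DMSO (−0.49), where 5.12% of all genes were called. In translational efficiency Mta1 alone was called, lower with torin 1 in Ctu1 iKO (−1.11), where 1.67% of all genes were called. The list medians in the 4 footprint comparisons lay between −0.14 and −0.01. What part a change in S phase cells had in the histone footprints was not tested.

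Codon use was examined for lysine, the amino acid whose AAA codon is read by a tRNA that the Ctu1 enzyme modifies. The median share of AAA among all codons was 0.769% in the replication-dependent genes, 2.12% in the variants and 2.14% in all genes, and that of AAG was 9.56%, 8.43% and 3.398%. Family medians for AAA were 4.48% in H1, 2.91% in H4, 0.769% in H2A, 0.368% in H3 and 0% in H2B. H1 and H4 thus lay above all genes and the other families below. Among the variants, H1f0 and H3f3a were high, at 7.22% and 5.88%. Whether codon use was related to the changes in Ctu1 iKO was not tested.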

How the data were processed

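Ribosome footprints and poly(A)-selected mRNA (stranded kit) were sequenced from the same lysates. The deposited values are raw counts per gene symbol that the authors made from their reads, with no normalization; the submitters' processing notes name cutadapt 3.4, STAR 2.5.3a, UMI-tools 1.1.1 and the mm10 and GRCm38 genomes. Every symbol listed reached at least 100 footprint counts in some library, so genes low in footprints are not described. Total counts per library set the precision and are given with the results. The methods name STAR's GeneCounts mode, and for the codon analysis reads assigned to 1 gene without ambiguity, but do not say which counts the deposited tables hold or how reads with several matches were treated in them.

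Members and gene lists were chosen with earlier results of these data known. CPM used all counts of a library. Comparisons used edgeR 4.0.16 in R 4.3.3 (TMM within each assay, quasi-likelihood test, genes averaging 10 counts or more, Benjamini-Hochberg adjustment over all genes, threshold 0.05), with DESeq2 1.42.0 as an alternative. Footprint comparisons used all replicates. RNA comparisons, translational efficiency (the interaction of assay and group) and footprints over RNA used replicates 1 to 3. Fits were tested on simulated data. Other alternatives were another filter, library totals, each replicate left out, subsets of replicates and the replicate number as a block.

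The labels number the replicates but do not say what a number shares. Deviations from group means correlated within every same-numbered pair for footprints with torin 1 in control (r from 0.46 to 0.65), footprints of Ctu1 iKO with torin 1 (0.34 to 0.58) and all RNA comparisons of replicates 1 to 3 (0.26 to 0.74), so the pairing was used there. For RNA the group means took in the libraries that the comparisons left out, so these r depend on those libraries too. In RNA of Ctu1 iKO with DMSO only 1 of 5 replicates was closest to its own number. In footprints of that comparison, where the numbers were not taken to pair the cultures, 2 of 5 were, so the evidence for pairing in its RNA is weak. The study's methods speak of 2 independent biological replicates, made on consecutive days, and its legends of up to 6 independent experiments, so how many cultures were independent, and which libraries share a day, is not settled, and p-values may in part measure technical spread. No 2 replicates agreed within counting noise (lowest chi-square per degree of freedom 20.1).

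Sequences, gene models and repeat counts came from RefSeq on GRCm38.p6 with Python 3.11.15. Values in every sample were given for the 4 members of each class with the highest footprint density in control with DMSO and for each member called, at most 6 per comparison by size of change. From the lists, called genes were named, at most 3 per list, comparison and direction by adjusted p. The remaining genes were picked with their values known.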

Additional observations from a re-analysis of the deposited data

Results flagged for a closer look

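Among the RNA libraries that the RNA comparisons left out, 3 held more replication-dependent histone RNA than any control library of the same treatment. The libraries labelled Ctu1 iKO with DMSO, replicates 4 and 5, gave 0.00230% and 0.00234% of all RNA counts, where the highest of the 6 control libraries with DMSO gave 0.00132%. On the torin 1 axis of control replicates 1 to 3 these libraries stood at 0.91 and 0.84, near torin 1 and against their label. The library labelled Ctu1 iKO with torin 1, replicate 4, gave 0.00213%, where the highest control library with torin 1 gave 0.00177%, and stood at 0.93 on the same axis. Libraries in use were also above the control range, with 0.00138% to 0.00170% in Ctu1 iKO with DMSO, replicates 1 to 3, and 0.00202% in Ctu1 iKO with torin 1, replicate 3. Replicates 5 and 6 of Ctu1 iKO with torin 1, left out too, were low at 0.00111% and 0.00123%. No difference between groups was tested on these libraries. In 0 of 36 groups did the share of a histone family or class in 1 library stand apart from the others.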

How the results depend on the processing

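Of 817 alternative values of 73 results, 351 of them with 1 replicate left out, 714 kept their direction and side of the threshold or stayed within 1.5 times a count. The cause of the changes below was not tested.

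The number of members called moved as follows. With the replicate block it was 10 for footprints with torin 1 in control, 9 for footprints of Ctu1 iKO with torin 1, and 5, 6, 3 and 5 for RNA with torin 1 in control, with torin 1 in Ctu1 iKO, in Ctu1 iKO with DMSO and in Ctu1 iKO with torin 1. For footprints of Ctu1 iKO with DMSO the replicate numbers did not pair the cultures (r from −0.09 to 0.50, 2 of 5 closest to their own number, with replicates 4 and 5 closest to control 5 and 6 as a hint from the data), and the block gave 8 of 72 members, all H2B genes, against 3.5% of all genes. It changed no call for torin 1 in Ctu1 iKO footprints, where the numbers did not pair the cultures either (−0.03 to 0.46). DESeq2 called 1 member in each comparison of genotypes in footprints, 3 and 1 in RNA with DMSO and with torin 1, and in translational efficiency 1 for torin 1 in control and 2 for Ctu1 iKO with torin 1. With all RNA replicates the count was 1 for RNA with torin 1 in control, 10 for RNA of Ctu1 iKO with DMSO, 0 and 1 for translational efficiency with torin 1 in control and in Ctu1 iKO. Footprints of replicates 1 to 3 alone gave 0 for torin 1 in control. Translational efficiency with torin 1 in control gave 0 with RNA counts halved, 1 with the culture as replicate block and 0 to 1 with a replicate left out.

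The following subsets were chosen after the data were seen. Replicates 4 to 6 of footprints gave 0 members for torin 1 in control and 2, H2ac15 and H2ac8, in Ctu1 iKO. A minimum of 10 counts in each assay left 24 members called in footprints over RNA, because fewer genes were tested, and 0 in translational efficiency with torin 1 in control.

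Class medians moved for RNA with torin 1 in Ctu1 iKO from 0.12 to −0.13 with no filter and −0.18 with all replicates, for RNA of Ctu1 iKO with DMSO from 0.28 to 0.51, and for translational efficiency from 0.01 to 0.30 (torin 1 in Ctu1 iKO) and from −0.36 to −0.76 (Ctu1 iKO with DMSO), all with all replicates. With 1 library left out, the RNA median of Ctu1 iKO with DMSO was 0.13 (without Ctu1 iKO replicate 3) to 0.31, that of Ctu1 iKO with torin 1, 0.24, was 0.13 (without control replicate 1) to 0.38 (without control replicate 3), that of torin 1 in control, 0.28, was 0.11 (without torin 1 replicate 1) to 0.26, and translational efficiency with torin 1 in Ctu1 iKO was −0.077 to 0.11. The median of footprints over RNA, 14.96, was 13.25 with 10 counts in each assay, 14.55 per length and 14.98 to 15.27 with a replicate left out. By culture, 9.35 became 11.999 with 0.1 CPM added and 9.17 with all replicates. With all replicates the direction turned for RNA with torin 1 in Ctu1 iKO of H2bc4 (−0.068) and H1f2 (−0.092), for H2ax RNA in Ctu1 iKO with DMSO (0.031) and for translational efficiency of Hist1h4m (−0.48). H3f3b, near the median gene in footprints over RNA, was at 1.24 per length and at −0.14 to 0.021 with a replicate left out.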
